A study of Mus musculus with 4 samples.

Results

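The 7 genes described here (Sgms2, Smpd3, Enpp1, Phospho1, Slc20a1, Slc20a2 and Mgp) act on the phosphate, pyrophosphate, sphingomyelin and matrix Gla protein that regulate mineral deposition. They were chosen by their role, from a list drawn up with the TPM ratios between these 4 libraries already known, so every ratio of a member below is a description. They were found by gene symbol among 55450 genes with deposited reads, and 6 of the 7 had reads, Phospho1 being the exception. All 6 had a mean of at least 20 reads over the 4 libraries, as had 7558 genes in all.

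RNA was sequenced from cultured articular chondrocytes of the femoral head, taken from mice at 3 weeks of age. There were 4 libraries with 1 library per group. WT came from wild-type C57BL/6 mice. Cart-miR-23-KO came from C57BL/6 mice that carried Col2a1-cre and were flox/flox for the miR-23a/b clusters. This Cre is driven by the promoter of the type II collagen gene and so acts in cells of the cartilage lineage. miR-26a KO came from C57BL/6 mice that were miR-26a -/-. miR-26a KO + 26a TF came from miR-26a -/- mice labelled C57BL6/J, whose chondrocytes were transfected with a miR-26a mimic after isolation. Whether the miR-26a KO culture was given the negative control oligonucleotide cannot be read from the labels. The label reads wild type, as does part of the study's text, whereas its methods give floxed mice without Cre as the comparison for Cart-miR-23-KO, so the genotype behind each ratio to WT is not certain. The number of animals behind each culture is not given in the sources used here.

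Mineral forms in cartilage and bone when phosphate and calcium meet in matrix vesicles and along collagen fibrils. Pyrophosphate, which the ectoenzyme ENPP1 makes from extracellular nucleotides and the membrane protein ANK helps to export, blocks crystal growth, and tissue-nonspecific alkaline phosphatase (Alpl) splits it into phosphate. PHOSPHO1 frees phosphate inside matrix vesicles from phosphocholine and phosphoethanolamine. Phosphocholine comes from sphingomyelin, which sphingomyelin synthases such as SGMS2 make and the neutral sphingomyelinase SMPD3 splits. The sodium-phosphate cotransporters PiT1 (Slc20a1) and PiT2 (Slc20a2) carry phosphate into cells, and matrix Gla protein (Mgp) is a calcium-binding inhibitor of calcification made in cartilage and vessel walls.

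The libraries held from 1336496 to 1505805 reads counted on genes, and from 15017 to 15306 genes were detected in each. With 1 library per group there was no replicate check and no test between conditions. Values are in TPM, the reads of a gene divided by its length and scaled to the library. Ratios were taken between deposited TPM values, with exact Clopper-Pearson intervals at 95% on the reads. These intervals cover counting error only and compare the libraries, not the conditions. All 14 chondrocyte markers examined, among them Col2a1, Acan and Sox9, had reads in every library. Their summed level was 18004 TPM in WT, 12308 TPM in Cart-miR-23-KO, 12849 TPM in miR-26a KO and 12775 TPM in miR-26a KO + 26a TF. No library held reads of more than 1 of 5 endothelial markers.

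Mature miRNAs of the deleted loci, other than miR-23b-3p, are shown from RefSeq (GRCm38.p6) because their seeds, bases 2 to 8, set apart in capitals, decide which transcripts carry a match. Those shown of the miR-23a and miR-23b clusters fall into 3 seed families, with miR-27a and miR-27b in 1 of them, and miR-26a has a seed of its own.
mmu-miR-23a-3p: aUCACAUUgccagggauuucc
mmu-miR-27a-3p: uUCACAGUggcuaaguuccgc
mmu-miR-27b-3p: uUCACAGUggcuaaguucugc
mmu-miR-24-3p: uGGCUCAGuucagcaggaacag
mmu-miR-26a-5p: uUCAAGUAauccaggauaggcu
The first lies at chr8:84208563-84208583 on the plus strand, with miR-27a-3p at chr8:84208727-84208747 and miR-24-3p at chr8:84208875-84208896. The sense strand of the transfected mimic has the same 22 bases as mmu-miR-26a-5p.

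The 3' UTRs of the 7 members held 3 matches to these seeds in all (GENCODE transcripts on GRCm38, the longest annotated 3' UTR of each gene). The matches are shown with their flanks, the matching letters in capitals.
Enpp1, miR-27: cttttttttccACTGTGAagagtgttttc
Enpp1, miR-23: aaatatcatgaAATGTGAtgtcttagttc
Slc20a1, miR-23: gaatgaagtggAATGTGAactttgggcaa
They lie at chr10:24640846-24640874 and chr10:24638170-24638198 on the minus strand for Enpp1, and at chr2:129211513-129211541 on the plus strand for Slc20a1. The miR-27 match in Enpp1 and the miR-23 match in Slc20a1 were followed by an A, which lengthens the site, and the miR-23 match in Enpp1 was not. The letters sought in the transcript were AATGTGA for the miR-23 family, the letters ACTGTGA for miR-27 and the letters CTGAGCC for miR-24. None of these was in the annotated 3' UTR of Sgms2 (4122 bases), Smpd3 (2711 bases), Phospho1 (831 bases), Slc20a2 (1192 bases) or Mgp (209 bases). Among 7288 genes with a mean of at least 20 reads and an annotated 3' UTR, 41.9% held a match to at least 1 of these 3 seeds. A match to the miR-26a seed (TACTTGA) was in none of the 7 members, against 12.6% of those genes. A match is a description of these letters and not a measured site.

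The sphingomyelin enzymes were the members with the lowest ratios of Cart-miR-23-KO to WT. Sgms2 (ENSMUSG00000050931, chr3:131318985-131491411, minus strand) encodes the sphingomyelin synthase of the plasma membrane. It had 320 reads and 52.8 TPM in WT, 53 reads and 9.63 TPM in Cart-miR-23-KO, 153 reads and 27.7 TPM in miR-26a KO, and 134 reads and 22.7 TPM in miR-26a KO + 26a TF. WT stood above the other libraries, Cart-miR-23-KO stood below them, and the pair of miR-26a -/- libraries lay between. WT was 1.90 times miR-26a KO (95% interval 1.57 to 2.32) and 5.48 times Cart-miR-23-KO (4.09 to 7.48). The neighbours miR-26a KO and miR-26a KO + 26a TF were not separated beyond counting error, at a ratio of 1.22 (0.963 to 1.55), whereas miR-26a KO + 26a TF was 2.36 times Cart-miR-23-KO (1.70 to 3.30). In bulk RNA, fewer cells of a type and less RNA per cell cannot be told apart, and this holds for every gene below.

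Smpd3 (ENSMUSG00000031906, chr8:106252548-106337988, minus strand) encodes the neutral sphingomyelinase whose loss in mice impairs skeletal mineralisation. Its reads were 290 in WT (53.9 TPM), 61 in Cart-miR-23-KO (12.5 TPM), 95 in miR-26a KO (19.4 TPM) and 110 in miR-26a KO + 26a TF (21.0 TPM). The highest and lowest libraries were the same as for Sgms2. WT was 2.57 times miR-26a KO + 26a TF (2.06 to 3.23) and 4.32 times Cart-miR-23-KO (3.27 to 5.79). The miR-26a KO + 26a TF and miR-26a KO libraries were 1.08-fold apart (0.815 to 1.44), within counting error, and miR-26a KO was 1.55 times Cart-miR-23-KO (1.11 to 2.18). The annotated 3' UTR of Smpd3 shares 247 bases with exons of Prmt7 on the opposite strand, and the strand setting of the counting is not given in the sources used here. Prmt7 had 27, 13, 20 and 30 reads in the same order of libraries, fewer than Smpd3 in each.

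**Figure D1:**
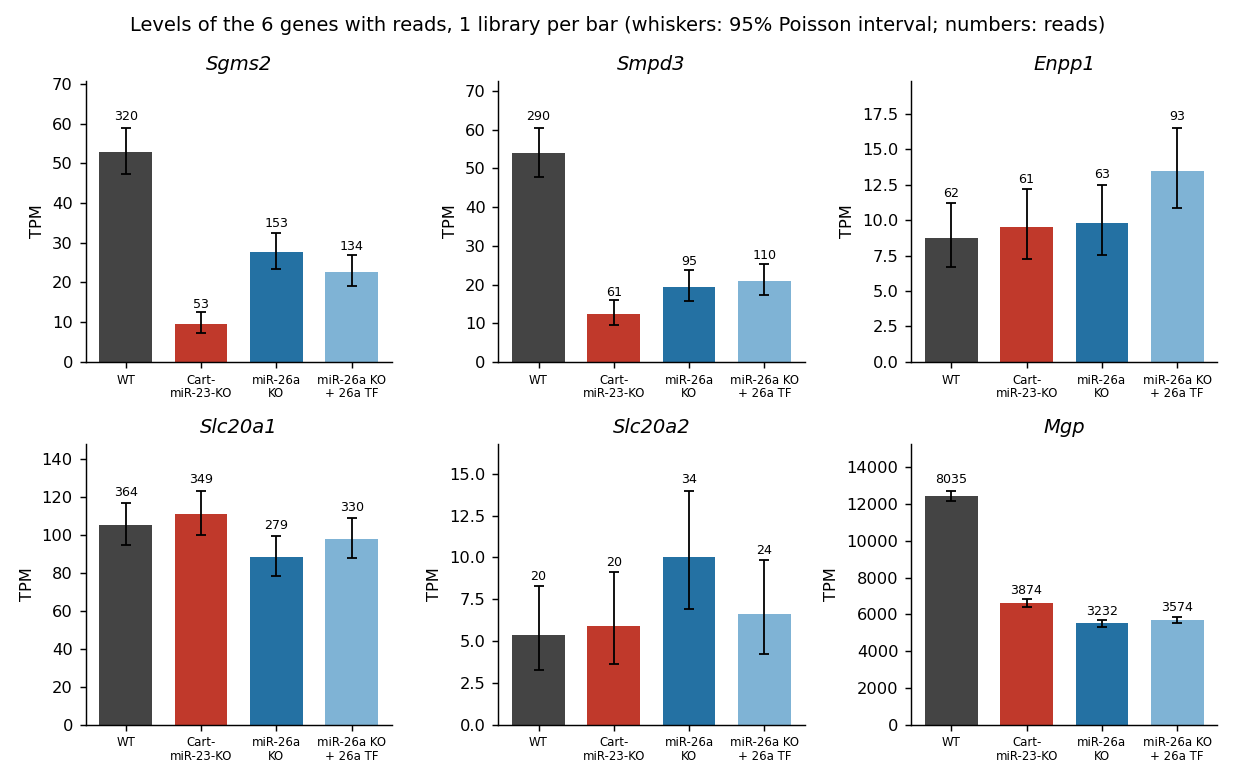
Level of each of the 6 members with reads in TPM (linear axis from 0), with 1 bar per library, whiskers for the 95% Poisson interval of its reads and the number of reads above. WT is the highest bar for Sgms2 (52.8 TPM), Smpd3 (53.9 TPM) and Mgp (12465 TPM), while the whiskers of libraries next to each other in level overlap for Enpp1, Slc20a1 and Slc20a2.

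The relation of the 2 sphingomyelin enzymes to each other within a library does not depend on scaling between libraries. Sgms2 made up 52.5% of the reads of the Sgms2 and Smpd3 pair in WT (exact binomial 95% interval 48.4 to 56.5), 46.5% in Cart-miR-23-KO (37.1 to 56.1), 61.7% in miR-26a KO (55.3 to 67.8) and 54.9% in miR-26a KO + 26a TF (48.4 to 61.3). The interval of Cart-miR-23-KO included the WT share, so no difference in this pair is read between those libraries at this depth. Against its paralog Sgms1, the sphingomyelin synthase of the Golgi, Sgms2 was less prominent in Cart-miR-23-KO. Sgms1 had 41 reads in WT, 36 in Cart-miR-23-KO, 50 in miR-26a KO and 37 in miR-26a KO + 26a TF. Sgms2 was 88.6% of the reads of both synthases in WT (84.9 to 91.7), 59.6% in Cart-miR-23-KO (48.6 to 69.8), 75.4% in miR-26a KO (68.8 to 81.1) and 78.4% in miR-26a KO + 26a TF (71.4 to 84.3). WT did not overlap with the other libraries, and Cart-miR-23-KO overlapped narrowly with miR-26a KO but not with miR-26a KO + 26a TF. A narrow overlap of separate intervals does not show that the shares were alike. These gene pairs were chosen after the values were seen.

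**Figure D2:**
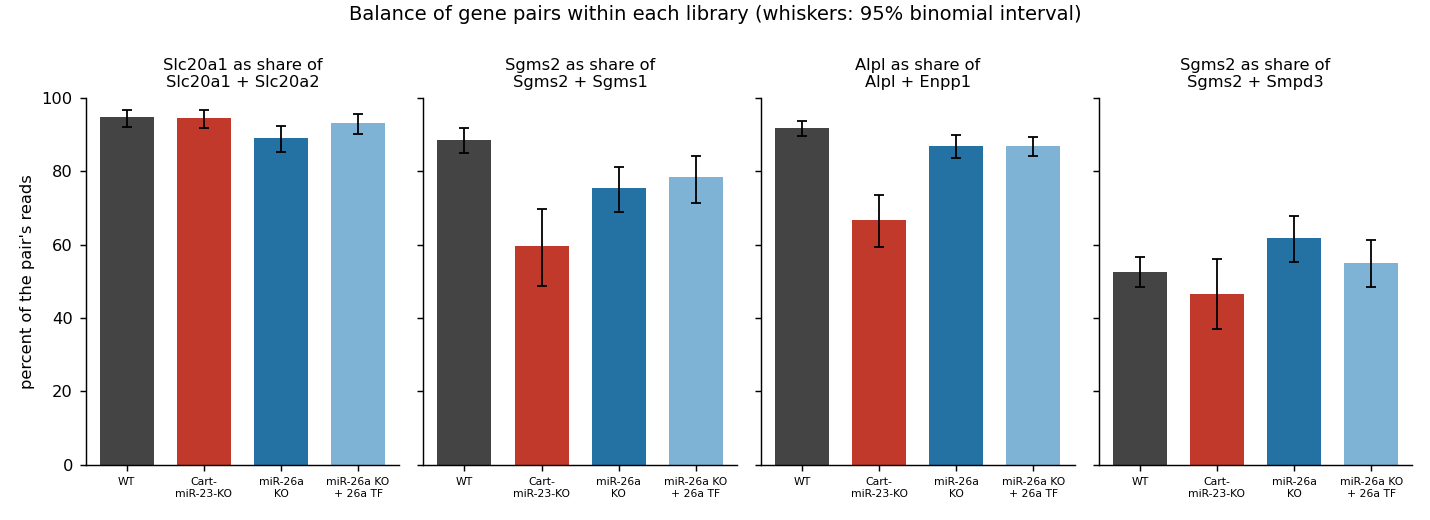
Share of the first gene in the reads of a gene pair, in percent, in each library, with whiskers for the exact 95% binomial interval. Sgms2 is 88.6% of the reads of Sgms2 and Sgms1 in WT and 59.6% in Cart-miR-23-KO, whereas Slc20a1 is at least 89.1% of the phosphate transporter reads in every library.

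Enpp1 (ENSMUSG00000037370, chr10:24637914-24712159, minus strand), a source of extracellular pyrophosphate, lay between 8.76 and 9.77 TPM in 3 libraries. It had 62 reads and 8.76 TPM in WT, 61 reads and 9.49 TPM in Cart-miR-23-KO, 63 reads and 9.77 TPM in miR-26a KO, and 93 reads and 13.5 TPM in miR-26a KO + 26a TF. No neighbours in this order were apart beyond counting error. The ratio of Cart-miR-23-KO to WT was 1.08 (0.748 to 1.57) for this gene, whose 3' UTR holds both a miR-23 and a miR-27 match. Its extremes, miR-26a KO + 26a TF and WT, were 1.54-fold apart (1.10 to 2.16), and the ratio of miR-26a KO + 26a TF to miR-26a KO was 1.38 (0.991 to 1.93).

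Alkaline phosphatase, which removes the pyrophosphate that ENPP1 makes, did not follow Enpp1 across the libraries. Alpl, which is not a member, had 701 reads in WT, 122 in Cart-miR-23-KO, 418 in miR-26a KO and 612 in miR-26a KO + 26a TF. There were 11.3 reads of Alpl per read of Enpp1 in WT, 2 in Cart-miR-23-KO, 6.63 in miR-26a KO and 6.58 in miR-26a KO + 26a TF. As a share of the reads of the pair, Alpl was 91.9% in WT (89.7 to 93.7) and 66.7% in Cart-miR-23-KO (59.3 to 73.4), intervals that did not overlap. The pyrophosphate transporter Ank had 90 reads in WT, 88 in Cart-miR-23-KO, 76 in miR-26a KO and 88 in miR-26a KO + 26a TF. Its ratio of Cart-miR-23-KO to WT was 1.08 (0.793 to 1.46), so of these 3 pyrophosphate genes Alpl alone had an interval that left out 1 in that comparison.

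Phospho1 (ENSMUSG00000050860, chr11:95824499-95832140, plus strand) had 0 reads in all 4 libraries. The limit set here for a count of 0, 3 reads, corresponds to 0.000199% of counted reads in WT, 0.000224% in Cart-miR-23-KO, 0.000219% in miR-26a KO and 0.000207% in miR-26a KO + 26a TF, and the upper end of the 95% Poisson interval is 3.69 reads. Of its 2029 exonic bases, 1818 are also exonic in Zfp652 on the same strand and 1708 in Abi3 on the opposite strand, and all 831 bases of its 3' UTR lie in exons of both. A read from these bases matches more than 1 gene, and how such reads were counted is not given in the sources used here. Zfp652 had 43 reads in WT, 34 in Cart-miR-23-KO, 26 in miR-26a KO and 24 in miR-26a KO + 26a TF, and Abi3 had from 3 to 5. The listed 0 therefore does not show that Phospho1 mRNA was absent.

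The phosphate transporters were led by Slc20a1 (ENSMUSG00000027397, chr2:129198764-129211616, plus strand). Slc20a1 had 364 reads and 105 TPM in WT, 349 reads and 111 TPM in Cart-miR-23-KO, 279 reads and 88.4 TPM in miR-26a KO, and 330 reads and 97.7 TPM in miR-26a KO + 26a TF. It varied least among the members with reads, and no neighbours in the order of the libraries were apart beyond counting error. The extremes, Cart-miR-23-KO and miR-26a KO, were 1.25-fold apart (1.07 to 1.47). The ratio of Cart-miR-23-KO to WT was 1.06 (0.909 to 1.23), and the 3' UTR of the gene holds a miR-23 match.

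Slc20a2 (ENSMUSG00000037656, chr8:22476788-22569612, plus strand) had the fewest reads of the members with any. It had 20 reads and 5.37 TPM in WT, 20 reads and 5.91 TPM in Cart-miR-23-KO, 34 reads and 10.0 TPM in miR-26a KO, and 24 reads and 6.61 TPM in miR-26a KO + 26a TF. No neighbours in the order of the libraries were apart beyond counting error. miR-26a KO was 1.87 times WT, with an interval from 1.04 to 3.42 that shows how little these counts fix the size. The ratio of Cart-miR-23-KO to WT was 1.10 (0.562 to 2.16), an interval that reaches past 2-fold. Slc20a2 shares 95 exonic bases, none of them in its 3' UTR, with Smim19 on the opposite strand. On the TPM scale, which divides by gene length, Slc20a1 stood at 19.6 times Slc20a2 in WT, 18.8 times in Cart-miR-23-KO, 8.82 times in miR-26a KO and 14.8 times in miR-26a KO + 26a TF. The share of Slc20a1 in the reads of the pair was 94.8% in WT (92.1 to 96.8) and 89.1% in miR-26a KO (85.2 to 92.4). These intervals overlapped slightly, which does not show that the shares were alike.

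Mgp (ENSMUSG00000030218, chr6:136872435-136875823, minus strand) was by far the most abundant member, at 0.536% of the reads in WT that fell on genes with a TPM value. It had 8035 reads and 12465 TPM in WT, 3874 reads and 6617 TPM in Cart-miR-23-KO, 3232 reads and 5506 TPM in miR-26a KO, and 3574 reads and 5689 TPM in miR-26a KO + 26a TF. As for the sphingomyelin enzymes WT was the highest library, but here the miR-26a -/- libraries were the lowest and not Cart-miR-23-KO. WT was 1.88 times Cart-miR-23-KO (1.81 to 1.96), and Cart-miR-23-KO was 1.16 times miR-26a KO + 26a TF (1.11 to 1.22). The miR-26a KO + 26a TF and miR-26a KO libraries were 1.03-fold apart (0.985 to 1.08), within counting error, and WT was 2.26 times miR-26a KO (2.17 to 2.36). The large counts make these intervals narrow, but they say nothing of the spread between cultures.

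Cart-miR-23-KO was compared with WT to ask which genes differ without the miR-23a/b clusters. The TPM ratio was below 0.5 for 2 members, Sgms2 at 0.182 (0.134 to 0.244) and Smpd3 at 0.232 (0.173 to 0.306), where 2.8% of the 7558 genes were that low. It was above 2 for 0 members, where 3.07% of genes were that high. Among all 7558 genes, 19 had a lower ratio than Sgms2 and 28 a lower ratio than Smpd3. Mgp lay just above the limit at 0.531 (0.511 to 0.552). The median log2 ratio of the 6 members was -0.42, against -0.02 over all genes. Since the members were chosen with these ratios known, the counts and the median are a description only.

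miR-26a KO was compared with the same WT library, so the 2 comparisons share it and a high value in WT lowers both. The ratio was below 0.5 for Smpd3 at 0.360 (0.282 to 0.455) and Mgp at 0.442 (0.424 to 0.460), where 1.53% of genes were that low. Sgms2 lay just above the limit at 0.525 (0.430 to 0.639). No member was above 2, where 2.84% of genes were that high, the highest being Slc20a2 at 1.87. Slc20a1 was at 0.842 (0.718 to 0.987) and Enpp1 at 1.12 (0.773 to 1.61). The median of the members was -0.59 on the log2 scale, against 0.04 over all genes.

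The mimic library was compared with miR-26a KO, the same genotype without the mimic. None of the 6 members was past 2-fold between miR-26a KO + 26a TF and miR-26a KO, where 0.609% of genes were above 2 and 0.556% below 0.5. The interval included 1 for each of the 6, with ratios from 0.660 for Slc20a2 (0.374 to 1.15) to 1.38 for Enpp1. For Sgms2 the ratio was 0.818 (0.644 to 1.04), and for Smpd3 it was 1.08 (0.815 to 1.44). For Sgms2, Smpd3 and Mgp the ratios of WT to miR-26a KO were 1.90, 2.78 and 2.26. They share the miR-26a KO library with the mimic ratios. Whether the mimic changed the level of any of these genes was not tested. The members' median was 0.08 on the log2 scale, against -0.01 over all genes.

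Between the knockout libraries, without the WT library, Cart-miR-23-KO against miR-26a KO gave 1 member below 0.5, Sgms2 at 0.347 (0.249 to 0.478), where 2.5% of genes were that low. No member was above 2, where 2.12% of genes were that high. Smpd3 was at 0.644 (0.459 to 0.897), Slc20a2 at 0.590 (0.322 to 1.05), Enpp1 at 0.971 (0.671 to 1.40), Mgp at 1.20 (1.15 to 1.26) and Slc20a1 at 1.25 (1.07 to 1.47). Sgms2 and Smpd3 were thus lower in Cart-miR-23-KO than in each of the other 3 libraries, while Mgp was not. The median of the members was -0.34 on the log2 scale, against -0.06 over all genes. The intervals of the 24 member ratios in the 4 comparisons were not adjusted for their number.

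**Figure D3:**
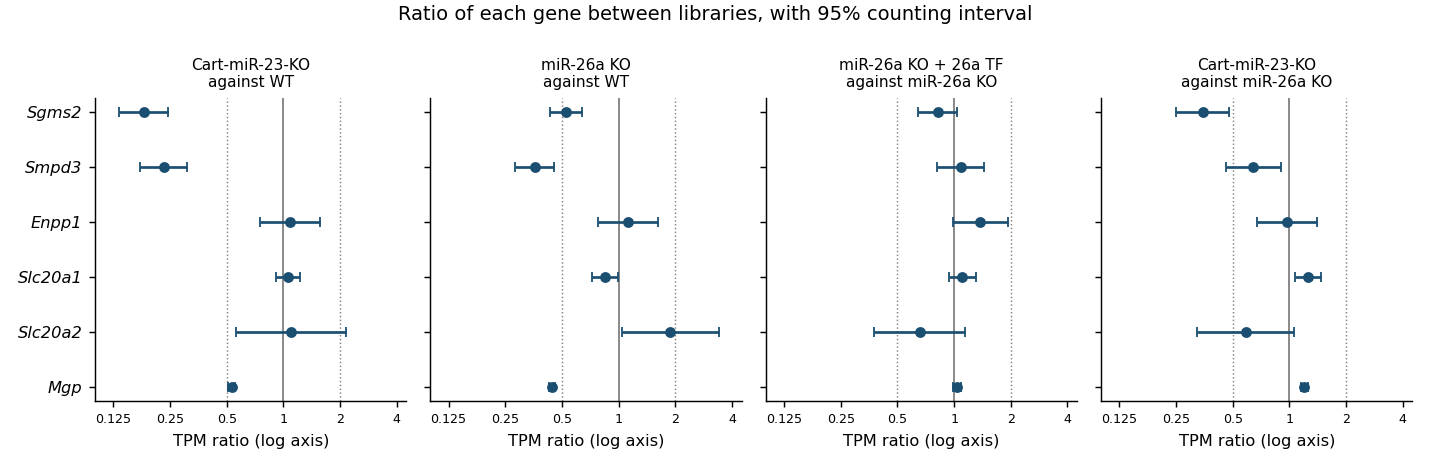
TPM ratio (log axis) of the 6 members with reads in the 4 comparisons, with whiskers for the 95% counting interval and dotted lines at 0.5 and 2. Sgms2 (0.182) and Smpd3 (0.232) lie left of 0.5 in Cart-miR-23-KO against WT, and each interval in miR-26a KO + 26a TF against miR-26a KO includes 1.

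Other genes of each pathway were taken from lists written with earlier results of these data known. Of 24 further phosphate and pyrophosphate genes, 17 had reads and 11 a mean of at least 20 reads. In Cart-miR-23-KO against WT 1 of the 11, Alpl, was below 0.5, at 0.192 (0.157 to 0.233), and none was above 2. Among all genes, 2.8% were that low and 3.07% that high. Nt5e, the ectoenzyme that turns AMP into adenosine and phosphate, had a ratio of 0.502 (0.329 to 0.753), and the growth factor receptor Fgfr1 one of 0.662 (0.542 to 0.807). The median of the list was -0.11 on the log2 scale. In miR-26a KO against WT none of the 11 was past 2-fold, and Alpl was at 0.655 (0.579 to 0.740). With the mimic Alpl was at 1.37 times miR-26a KO (1.21 to 1.55), and in Cart-miR-23-KO against miR-26a KO it was again the only 1 of the 11 past 2-fold, at 0.293 (0.237 to 0.359).

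Of 32 further genes that make, split or move sphingomyelin, ceramide and phosphocholine, 27 had a mean of at least 20 reads, and none was past 2-fold in any of the 4 comparisons. In Cart-miR-23-KO against WT 5.87% of all genes were past 2-fold in either direction, so few of 27 would be at that share, and nothing is read from the count. The list's median there was 0.12 on the log2 scale, and the 3 genes farthest from a ratio of 1 were above it. They were Ugcg, which makes glucosylceramide, at 1.78 (1.01 to 3.23), Kdsr, a reductase of ceramide synthesis, at 1.59 (1.18 to 2.15), and Degs1, the dihydroceramide desaturase, at 1.52 (1.29 to 1.79). Sgms1 was at 0.967 (0.600 to 1.55). In the miR-26a KO library Sgms1 was at 1.34 times WT (0.868 to 2.08), and the list's median was 0.03.

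Of the Gla and mineral-binding proteins other than Mgp, 9 of 14 had a mean of at least 20 reads. In Cart-miR-23-KO against WT 4 of the 9 were below 0.5 and 1 was above 2. Among all genes, 2.8% were that low and 3.07% that high. Bglap and Bglap2, the osteocalcin genes, were at 0.169 (0.0909 to 0.292) and 0.134 (0.0747 to 0.227). They are near-identical paralogs whose reads the counting may have split, so their separate values are uncertain. Ibsp, the bone sialoprotein of mineralising matrix, had 10938 reads in WT, 1653 in Cart-miR-23-KO, 5837 in miR-26a KO and 6393 in miR-26a KO + 26a TF, and was at 0.166 (0.158 to 0.175). The others past 2-fold, named after their values were seen, were the cartilage Gla protein Ucma at 0.399 (0.363 to 0.439) and osteopontin (Spp1), an inhibitor of crystal growth, at 2.09 (1.94 to 2.24). In miR-26a KO against WT Ucma alone of the 9 was past 2-fold, at 0.430 (0.392 to 0.472). Mgp and Ucma were thus lower in each knockout library than in WT, by ratios whose intervals left out 1. Gas6, another Gla protein, went the other way, at 1.99 (1.81 to 2.19) in Cart-miR-23-KO and 1.71 (1.56 to 1.89) in miR-26a KO against WT, and was likewise named after its values were seen. None of the 9 was past 2-fold with the mimic, and in Cart-miR-23-KO against miR-26a KO Bglap, Bglap2 and Ibsp were below 0.5 and Spp1 above 2.

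Of 8 annexins, calcium-binding proteins found on matrix vesicles, 7 had a mean of at least 20 reads. None was past 2-fold in Cart-miR-23-KO against WT, where Anxa1 was at 1.97 (1.60 to 2.45), Anxa3 at 1.32 (1.04 to 1.70) and Anxa7 at 1.31 (1.01 to 1.71). In miR-26a KO against WT Anxa1 was at 2.36 (1.93 to 2.91), the only annexin past 2-fold in the 4 comparisons. The list's median was 0.23 on the log2 scale in the first comparison and 0.49 in the second.

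Of the osteoblast markers with enough reads, 8 of 10 had the same highest and lowest libraries as Sgms2 and Smpd3, Runx2 and Bglap being the exceptions. So had 2 of 11 phosphate and pyrophosphate genes, 2 of 27 sphingomyelin and ceramide genes and 2 of 9 Gla and mineral-binding proteins. The count was 4 of 9 for hypertrophic chondrocyte markers, 3 of 14 for chondrocyte markers and 0 of 7 for annexins. The share over all genes was not taken, so nothing is read from these counts. Of 14 osteoblast markers in all, 10 had a mean of at least 20 reads, with a median log2 ratio of -2.33 in Cart-miR-23-KO against WT. Of these 10, 9 were below 0.5, where 2.8% of all genes were that low. The tenth was Runx2, a transcription factor of bone and hypertrophic cartilage, at 0.773 (0.480 to 1.23). The summed level of the 14 markers was 34246 TPM in WT, 24716 TPM in miR-26a KO, 23528 TPM in miR-26a KO + 26a TF and 11304 TPM in Cart-miR-23-KO, highest in WT and lowest in Cart-miR-23-KO as Sgms2 was. On the TPM scale the largest part of each sum was Col1a2, a chain of type I collagen, at 21110 TPM in WT, 18146 TPM in miR-26a KO, 16021 TPM in miR-26a KO + 26a TF and 8798 TPM in Cart-miR-23-KO. In reads Col1a1 stood above Col1a2, with 39203 against 18746 in WT, so the weights in the sum rest on the division by gene length, and the order of the miR-26a -/- libraries is not read from it. Among the defining genes of late osteoblasts and osteocytes, Mepe was at 0 in every library, Dmp1 had from 0 to 4 reads, and Ifitm5 had 34 reads in WT and 0 in Cart-miR-23-KO. The part of these markers in the ratios of Sgms2, Smpd3 and Alpl was not tested. In miR-26a KO against WT 3 of the 10 markers were below 0.5, where 1.53% of all genes were that low. The median of the 10 was -0.73 on the log2 scale. With the mimic none of the 10 was past 2-fold, and their median was 0.23 on the log2 scale.

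Hypertrophic chondrocyte markers, which share Alpl and Pth1r with the osteoblast list, summed to 2829 TPM in WT, 2369 TPM in Cart-miR-23-KO, 2397 TPM in miR-26a KO and 2903 TPM in miR-26a KO + 26a TF. Of the 9 with enough reads 5 were below 0.5 and 1 above 2 in Cart-miR-23-KO against WT. Among all genes, 2.8% were that low and 3.07% that high. The median of the 9 was -1.27 on the log2 scale. Of all 10, Panx3, Pth1r, Mef2c, Alpl and Ihh were highest in WT and lowest in Cart-miR-23-KO, Ihh with too few reads to be among the 9, and the other 5 were not. Mmp13 was at 507 TPM in WT, 330 TPM in Cart-miR-23-KO, 871 TPM in miR-26a KO and 925 TPM in miR-26a KO + 26a TF, and Spp1 was at 773 TPM in WT and 1613 TPM in Cart-miR-23-KO. Col10a1, the defining collagen of these cells, had 105 reads in WT and 148 in Cart-miR-23-KO. Adipocyte markers summed to 163 TPM in WT, 487 TPM in Cart-miR-23-KO, 129 TPM in miR-26a KO and 174 TPM in miR-26a KO + 26a TF. Macrophage and osteoclast markers summed to 1157 TPM in WT, 1487 TPM in Cart-miR-23-KO, 561 TPM in miR-26a KO and 942 TPM in miR-26a KO + 26a TF. Smooth muscle markers summed to 158 TPM in WT, 342 TPM in Cart-miR-23-KO, 159 TPM in miR-26a KO and 206 TPM in miR-26a KO + 26a TF. Most of each sum was Acta2, at 151, 309, 151 and 195 TPM in the same order. Acta2 was the only 1 of the 5 with a mean of at least 20 reads, and Myh11 was at 0 in every library. Fibroblast and synovial markers lay between 1905 TPM and 3094 TPM. The chondrocyte sum given above was highest in WT. Of its 14 markers, 2 were below 0.5 in Cart-miR-23-KO against WT, where 2.8% of all genes were that low. Only 3 of the 14 were highest in WT and lowest in Cart-miR-23-KO. The weights in this sum also rest on the division by gene length, so the order of the libraries below WT is not read from it. The part of the hypertrophic, chondrocyte and other markers in the members' ratios was not tested either.

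**Figure D4:**
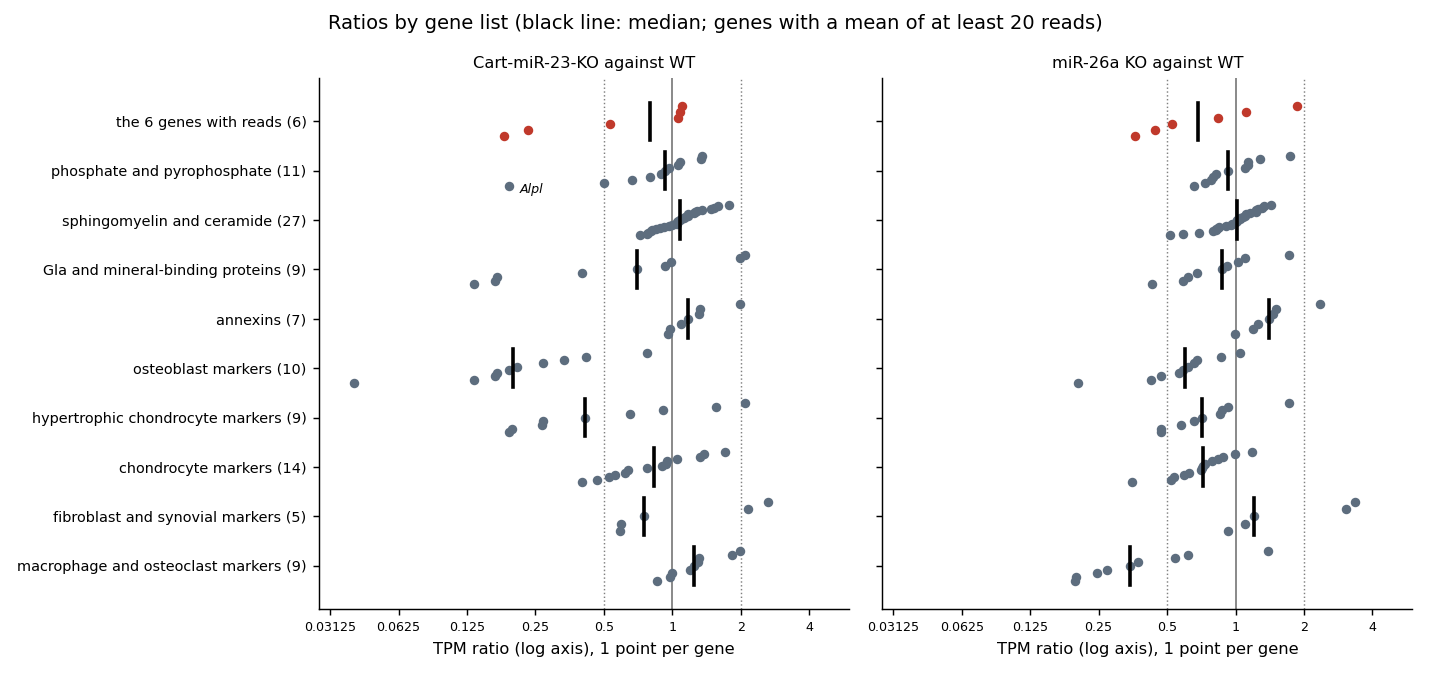
TPM ratio (log axis) to WT of the 6 members with reads and of the genes of each list with a mean of at least 20 reads, 1 point per gene, in Cart-miR-23-KO (left) and miR-26a KO (right). Black lines mark medians and dotted lines 0.5 and 2. In Cart-miR-23-KO 9 of 10 osteoblast markers lie left of 0.5, where 2.8% of all genes were that low. All 27 sphingomyelin and ceramide genes lie between the dotted lines there.

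The genes whose levels across the 4 libraries were most like those of a member were sought for Sgms2, Smpd3 and Mgp, which spanned more than 1 on the log2 scale with 0.5 TPM added (2.40, 2.07 and 1.18). Likeness was the root mean square difference of centred log2 values over the 4 libraries, among 4513 genes with a mean of at least 50 reads. For Sgms2 the nearest were Col1a1, a chain of type I collagen, at 0.20, the transcriptional corepressor Rcor2 at 0.24 and Ibsp at 0.24. Col1a1 was at 6328 TPM in WT, 1311 TPM in Cart-miR-23-KO, 2690 TPM in miR-26a KO and 3194 TPM in miR-26a KO + 26a TF. For Smpd3 they were the transcription factor Mef2c at 0.14, the membrane peptidase Mme at 0.16 and the membrane protein Itm2a at 0.20. Mef2c was at 68.8 TPM in WT, 18.3 TPM in Cart-miR-23-KO, 32.5 TPM in miR-26a KO and 31.9 TPM in miR-26a KO + 26a TF. For Mgp they were the secreted Wnt antagonist Frzb, the growth factor binding protein Igfbp5 and the mTOR inhibitor Deptor, each at 0.13. Frzb was at 268 TPM in WT, 169 TPM in Cart-miR-23-KO, 141 TPM in miR-26a KO and 156 TPM in miR-26a KO + 26a TF. With 4 libraries, many genes can share such an order, and nothing is read from it.

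Promoter sequences from RefSeq (GRCm38.p6) matched 4 of the members, Sgms2, Enpp1, Phospho1 and Slc20a1. They were searched on both strands for TGTGGT, the core of the motif bound by RUNX factors, which act in osteoblasts and hypertrophic chondrocytes, and for the TATA box letters TATAAA. The 2 motifs do not overlap. Of all 32851 promoters of this length, 16.8% held the first and 13.6% the second. The RUNX core was in 1 of 6 promoters of Sgms2, in the 1 promoter of Enpp1, in 1 of 2 of Slc20a1 and not in that of Phospho1. Nothing is drawn from these matches about the factors. The promoter of Sgms2 that holds it, chr3:131491394-131491693 on the minus strand, is shown with the motif in capitals.
Sgms2 promoter: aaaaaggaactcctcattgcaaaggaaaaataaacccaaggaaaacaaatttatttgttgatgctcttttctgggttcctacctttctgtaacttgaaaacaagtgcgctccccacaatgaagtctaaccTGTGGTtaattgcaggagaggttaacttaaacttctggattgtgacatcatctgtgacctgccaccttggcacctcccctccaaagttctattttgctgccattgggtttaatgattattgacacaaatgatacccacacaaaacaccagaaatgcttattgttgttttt
The TATA box letters were in the same promoter of Slc20a1 that holds the RUNX core and in no promoter of the other 3 genes.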

How the data were processed

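RNA from 4 chondrocyte cultures was made into QuantSeq 3' mRNA libraries (FWD) and sequenced single-end to 75 bases. The authors used the mouse genome for mapping (mm10 and GRCm38.p6 in the submitters' processing notes); the aligner, counter and strand setting are not given in the sources used here. The deposited estimated counts are whole reads per gene without normalization, for 3 of the 4 libraries. The deposited TPM values cover all 4 and divide reads by gene length, which does not suit 3' reads when genes are compared but cancels in ratios of 1 gene. Reads of miR-26a KO + 26a TF were recovered from TPM: 14429 of 14429 values were whole within 0.01, and 588 genes could not be recovered. The 309 genes without TPM held 0.480% to 0.633% of reads.

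Ratios of TPM were counted above 2 and below 0.5 in the 7558 genes whose mean was 20 reads or more. Intervals are exact (Clopper-Pearson for ratios and shares, Poisson for levels, all at 95%) and cover counting error only. They treat reads as independent molecules. Where reads are PCR copies of the same molecule, the intervals are too narrow even for counting error. A count of 0 was given a floor of 3 reads. The script for the ratios and intervals was tested on simulated data. The members and lists were chosen with earlier results of these data known. Named genes are the members, the 3 of each pathway list with the largest change between Cart-miR-23-KO and WT, Alpl, Ank, Sgms1 and Bglap, and the 3 most like each variable member (likeness as defined above). A few more were picked with values in view, as said beside them. Alternative scales were DESeq2's size factors, TMM from edgeR and CPM, and further alternatives were 0.5 or 1 TPM added, other read minimums and a fold limit of 1.5. 3' UTRs came from GENCODE, and miRNAs and promoters from RefSeq. The work used R 4.3.3 with DESeq2 1.42.0 and edgeR 4.0.16, and Python 3.11.15 with scipy 1.17.1, pandas 2.3.3, numpy 2.4.6 and matplotlib 3.10.9.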

Additional observations from a re-analysis of the deposited data

How the results depend on the processing

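With each alternative scale or added TPM, all 120 recomputed ratios of members stayed inside their counting intervals, and the largest change was 1.08-fold. The number of members past a limit depended on the limit: at 1.5-fold in place of 2-fold it was 3 in Cart-miR-23-KO against WT, 4 in miR-26a KO against WT, 1 in miR-26a KO + 26a TF against miR-26a KO and 3 in Cart-miR-23-KO against miR-26a KO. Of all genes 20.1%, 16.4%, 8.55% and 16.6% were past 1.5-fold in these comparisons, in the same order. The share of all genes past 2-fold in either direction depended on the minimum of reads. In Cart-miR-23-KO against WT it was 5.87%, and 8.97% with a mean of at least 10 reads and 15.2% with no minimum. In miR-26a KO against WT it was 4.38%, and 7.33%, 2.81% (at least 50 reads) and 13.3% (no minimum). In miR-26a KO + 26a TF against miR-26a KO it was 1.16%, and 3.49%, 0.244% and 10.7%. In Cart-miR-23-KO against miR-26a KO it was 4.62%, and 7.52%, 2.48% and 13.7%. Fewer reads per gene make larger ratios by counting error alone, so shares without a minimum are no background for the members. The cause of the other differences was not tested. Of the other recomputed values, counts and shares stayed within 1.5 times, and the medians kept their sign. No paired analysis was possible because no group holds more than 1 library, and for that reason no library could be left out. Depth limits Slc20a2 and Enpp1 most, with fewer than 100 reads in each library.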
